A study of Mus musculus with 12 samples.

Results

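Some promoters of the colon epithelium differed in how much methylation they showed after induction of Dnmt3b according to the size of the DNA fragments that were read. These genes were chosen by a rule on the measured levels. Among the 5309 genes listed in all 12 libraries, the change (mean of induced minus mean of control mice) was taken in the long- and in the short-fragment libraries, and a gene was kept when the 2 changes differed by at least 15 percentage points. The rule found 473 genes, 8.91% of the 5309. In 253 of them (4.77%) the long-fragment change was the larger, and in 220 (4.14%) the short-fragment change was the larger. Over all libraries 12098 genes were listed at least once.

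Methylation was read by reduced representation bisulfite sequencing, in which DNA is cut by the enzyme MspI at CCGG, selected by length and treated with bisulfite so that cytosines without a methyl group appear as thymine. C57BL/6 mice were used, and their colon epithelial cells supplied the DNA. In the induced group, 3 mice had 0.5 g/l doxycycline in the drinking water, changed every 3 days, over 3 months, while the 3 control mice had regular water. From each mouse, fragments of 40 to 120 nt (short) and of 120 to 220 nt (long) were made into separate libraries, which makes 4 groups of 3 libraries. The labels give no transgene construct, sex or age and do not say whether the control mice carried the transgene, so doxycycline and induction cannot be told apart.

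Dnmt3b is a de novo DNA methyltransferase: it adds methyl groups to CpG sites that carried none. Promoters rich in CpG (CpG islands) are mostly unmethylated in normal tissue, and dense methylation there usually goes with a silent gene. MspI cuts between the cytosines of CCGG whether or not the inner CpG is methylated, so the short and the long fragments of a promoter are separate stretches of DNA. They hold different CpGs, apart from the CpG of a cut site where a short and a long fragment meet. The level of a gene in each library is the mean over the CpGs read there, averaged by the authors over its RefSeq promoters, and is given here in percent. The number of reads and CpGs behind a level is unknown.

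The stretches of DNA upstream of 6 members show how CCGG sites can be spaced there. The genes were picked for description, 4 with a larger long-fragment change (Wif1, Ptpn1, Bmp8b and Fgf22) and 2 with a larger short-fragment change (Pitx3 and Irx4). Each line gives the 250 bases before the start of the gene, 5′ to 3′ in the direction of the gene, from the RefSeq promoter table of assembly GRCm38.p6, with every CCGG in capitals. CCGG reads the same on both strands. The windows are Wif1 at chr10:121033754-121034003, plus strand; Ptpn1 at chr2:167932077-167932326, plus strand; Bmp8b at chr4:123104911-123105160, plus strand. The others are Fgf22 at chr10:79754859-79755108, plus strand, Pitx3 at chr19:46148326-46148575, minus strand and Irx4 at chr13:73260247-73260496, plus strand.
Wif1: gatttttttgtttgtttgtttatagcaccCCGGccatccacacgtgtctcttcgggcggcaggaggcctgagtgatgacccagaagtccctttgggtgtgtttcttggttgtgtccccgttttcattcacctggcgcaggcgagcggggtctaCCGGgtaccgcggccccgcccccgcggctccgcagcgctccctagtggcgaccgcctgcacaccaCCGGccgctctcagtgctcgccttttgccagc
Ptpn1: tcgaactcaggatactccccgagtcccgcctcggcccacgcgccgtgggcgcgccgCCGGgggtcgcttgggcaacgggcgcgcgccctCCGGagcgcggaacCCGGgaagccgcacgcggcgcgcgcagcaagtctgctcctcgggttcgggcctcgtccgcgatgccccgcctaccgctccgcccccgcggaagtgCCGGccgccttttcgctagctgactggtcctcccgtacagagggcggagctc
Bmp8b: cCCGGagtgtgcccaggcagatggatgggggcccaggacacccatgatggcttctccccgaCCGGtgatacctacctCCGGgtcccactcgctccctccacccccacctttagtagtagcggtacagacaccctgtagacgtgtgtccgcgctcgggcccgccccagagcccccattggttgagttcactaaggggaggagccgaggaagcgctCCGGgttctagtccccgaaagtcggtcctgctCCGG
Fgf22: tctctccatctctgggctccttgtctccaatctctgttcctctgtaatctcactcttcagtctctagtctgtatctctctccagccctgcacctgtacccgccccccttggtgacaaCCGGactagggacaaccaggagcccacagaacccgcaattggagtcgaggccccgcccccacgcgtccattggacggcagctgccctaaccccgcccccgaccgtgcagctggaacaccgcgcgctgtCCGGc
Pitx3: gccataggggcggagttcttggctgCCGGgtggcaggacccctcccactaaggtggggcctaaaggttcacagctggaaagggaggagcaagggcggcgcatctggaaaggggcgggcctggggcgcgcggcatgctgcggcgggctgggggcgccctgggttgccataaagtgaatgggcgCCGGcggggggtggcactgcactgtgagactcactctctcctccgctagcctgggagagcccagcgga
Irx4: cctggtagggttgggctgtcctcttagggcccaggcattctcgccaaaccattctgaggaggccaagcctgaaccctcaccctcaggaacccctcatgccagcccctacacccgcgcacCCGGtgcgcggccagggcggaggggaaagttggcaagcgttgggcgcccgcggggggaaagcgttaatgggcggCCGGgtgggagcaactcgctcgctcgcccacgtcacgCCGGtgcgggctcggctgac
Counted from start to start, neighbouring CCGG sites lie 124 and 65 bases apart in the Wif1 window, 128 in that of Fgf22 and 33, 14 and 95 in that of Ptpn1. The Bmp8b window has spacings of 60, 16, 137 and 32 bases, that of Pitx3 157, and that of Irx4 74 and 37. CCGG is found in 47.1% of the 32851 upstream windows of this length in the table, and 26.5% hold at least 2. Whether these windows are the promoter regions the authors used, and which of these fragments were read, is not known from the sources used here. Windows were matched for 78.0% of the members and 78.7% of the 5309 genes. With fewer than 80% matched, a comparison of base composition or site spacing between members and other genes is void and is not given.

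Members with a larger long-fragment change went, at the median, from 3.25% in control to 50% in induced mice in long fragments, and from 0.847% to 21.8% in short fragments. Their median changes were 39.0 and 13.6 points. Members with a larger short-fragment change went from 2.93% to 59.4% in short fragments and from 6.59% to 41.4% in long fragments, with median changes of 53.0 and 29.0 points. Over all 5309 genes the median changes were 0.533 points in short and 0.833 points in long fragments. These levels are the ones the rule used, and they are given as a description.

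Averaged over the genes of each direction, the mice of a group had SDs of 0.724 to 6.13 points. The mean level of the members with a larger long-fragment change was 7.86% ± 0.724 (SD, n = 3) in short and 8.10% ± 0.851 in long fragments of control mice, and 28.6% ± 2.88 and 51.6% ± 3.10 in those of induced mice. For the members with a larger short-fragment change the control means were 8.26% ± 1.19 in short and 17.3% ± 1.63 in long fragments, and the induced means 55.6% ± 2.58 and 41.7% ± 6.13. The widest spread among these 8 means was that of the long fragments of induced mice in the members with a larger short-fragment change. There the mice stood at 36.1%, 40.9% and 48.3%, and the median SD of single genes was 9.65 points.

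**Figure D1:**
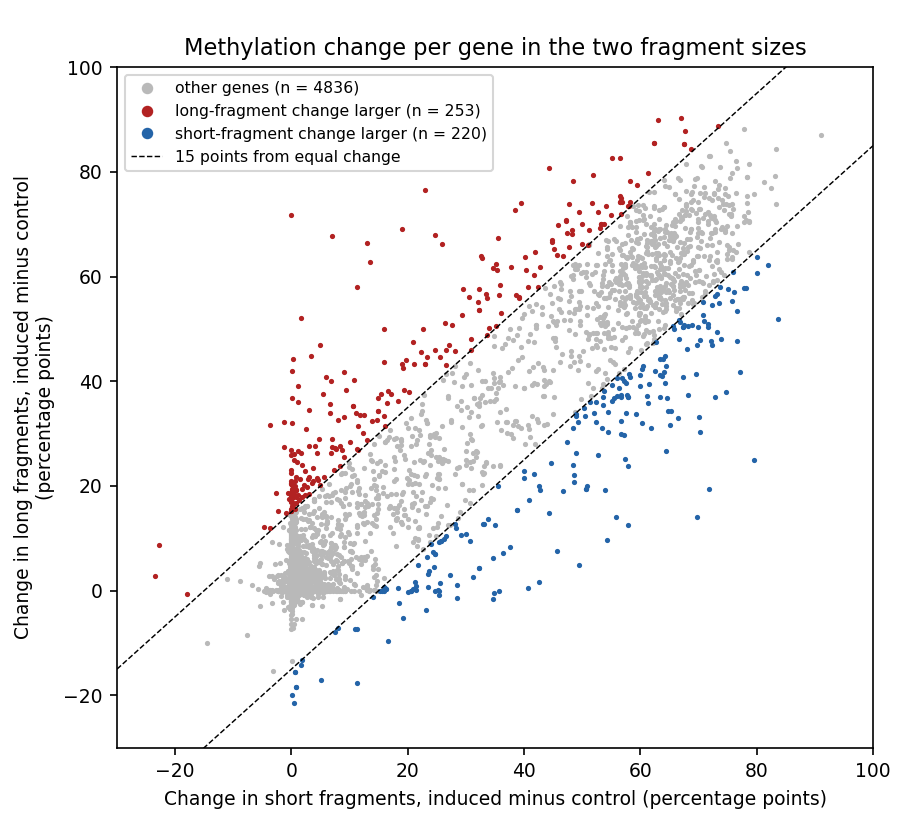
Change in the short-fragment libraries (x axis, percentage points, induced minus control) against change in the long-fragment libraries (y axis, percentage points) for the 5309 genes. Members lie outside the band of 15 points on each side of the diagonal, 253 above it and 220 below it.

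Most differences were within 10 points of the threshold. Of the members with a larger long-fragment change, 124 differed by 15 to 20 points, 70 by 20 to 25, 41 by 25 to 35, 12 by 35 to 50 and 6 by 50 or more. In the other direction the counts were 99, 58, 44, 16 and 3. The median difference (long change minus short change) was 20.1 points and -20.4 points. Just inside the threshold lay Socs5, a suppressor of cytokine signalling, with a difference of 15.10 ± 5.32 points (SE from the limma fit over the 12 libraries), and Lhx3, a pituitary and motor neuron transcription factor, with 15.16 ± 14.6 points. Just outside it lay Grem1, a BMP antagonist, with 14.98 ± 5.96 points, and Enah, an actin regulator, with 14.99 ± 11.3 points. In the other direction Helt, a neural transcription factor, lay just inside with -15.01 ± 8.24 points, and Plxna4, a semaphorin receptor, just outside with -14.85 ± 10.2 points.

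A test of the difference between the changes called only part of the members. A limma fit over all 5309 genes, with mouse as a random block, called 250 genes (4.71%) at an adjusted p under 0.05, 140 (2.64%) with the long and 110 (2.07%) with the short change larger. Of the members 71 of 253 and 46 of 220 were among them. The long-minus-short levels of the 3 induced mice all lay above those of the control mice in 205 of the 253 members (13.1% of all genes) and all below them in 158 of the 220 (10.6%). Since the rule selected on this contrast, nothing is read from these counts. With mouse as a fixed block, 137 genes (2.58%) and 78 members passed, 64 of them members also called with the random block. Called members had a median absolute difference of 24.3 and 27.5 points in the 2 directions and a median SE of 3.51 and 3.97. Members not called had 19.6 and 19.8 points with SEs of 8.32 and 10.5, and the fit also called 133 genes under the threshold, with a median difference of 6.26 points.

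A reading that the rule did not use comes from mice left out of the choice. The rule was applied to 2 control and 2 induced mice, and the difference was read in the remaining control and induced mouse, for each of the numbers 1, 2 and 3. Genes chosen for a larger long-fragment change numbered 270, 327 and 309, and 80.4%, 74.0% and 83.5% of them had the same sign in the left-out mice, against 51.4%, 49.6% and 46.8% of all genes. Genes chosen for a larger short-fragment change numbered 215, 235 and 283, and 72.1%, 78.7% and 71.7% kept the sign, against 43.9%, 45.4% and 48.2%. The median difference was smaller in the left-out mice than in those used to choose, 13.97, 10.07 and 11.94 points against 20.3, 21.1 and 20.1, and -13.4, -13.97 and -8.53 against -21.75, -22.1 and -22.12. A difference of 15 points or more in the left-out mice was found for 38.2% to 48.1% of the first set, against 6.42% to 9.10% of all genes, and for 34.6% to 48.8% of the second, against 4.35% to 7.82%. Most genes barely changed, so the same was read for genes with a mean gain of 5 points or more in the 4 choosing mice. They numbered 1823, 1824 and 1846 and included those chosen genes that had such a gain. Of these, 16.2% to 21.9% differed by 15 points or more with the long and 11.7% to 21.3% with the short change larger, and 50.1% to 56.6% and 43.4% to 49.9% had the respective sign. Apart from this, the rule was applied to the members again without each of the 6 mice in turn. In all 6 cases 130 of the 253 and 105 of the 220 members were still at 15 points or more. The mice that remained had also chosen the members, so this count is no reading in unused mice. The 3 readings in left-out mice share mice in the choosing step and are not independent of each other.

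**Figure D2:**
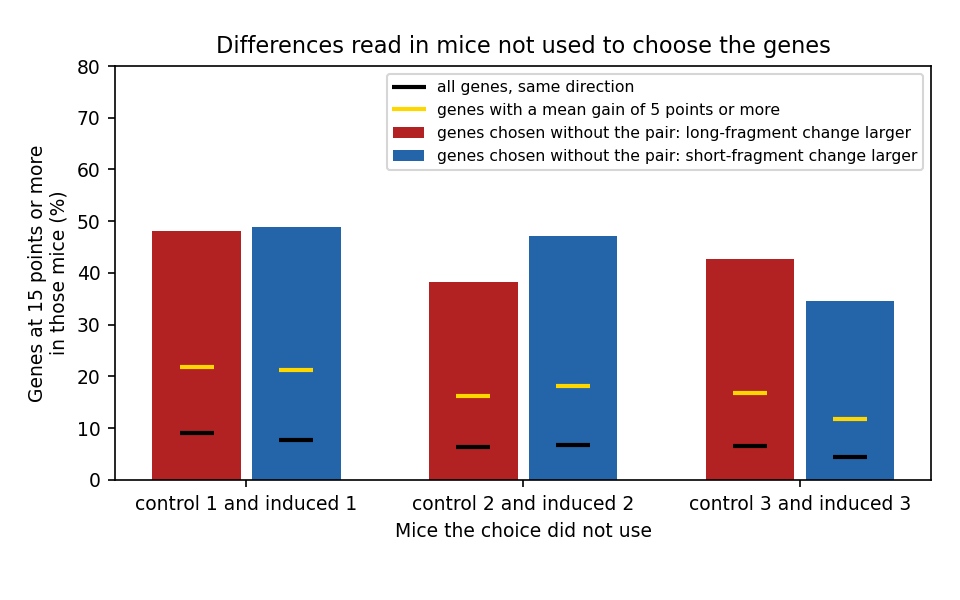
Share of genes (y axis, percent) with a difference of 15 points or more in 1 control and 1 induced mouse that were not used to choose them, by the mice left out (x axis). Bars stand for the chosen genes of each direction, black marks for all genes and yellow marks for genes with a mean gain of 5 points or more. The bars reach 34.6% to 48.8%, the black marks 4.35% to 9.10% and the yellow marks 11.7% to 21.9%.

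Setting apart 19 members lower by 5 points or more in a size, the short fragments stayed under 10% in induced mice in 92 members with a larger long-fragment change (93 with those included). Their median level went from 4.64% to 30.5% in long fragments and from 0.0933% to 1.15% in short fragments, and in 12 of them the induced long-fragment mean was above 50%. Wif1 (Gene ID 24117), a secreted Wnt inhibitor, is an example. Its short-fragment level was 0%, 0% and 0.56% in the control mice and 0%, 0% and 0.14% in the induced mice. Its long-fragment level was 0%, 0% and 0.44% in the control mice and 25.4%, 25.6% and 29.8% in the induced mice, so that only the long fragments separated the groups. The difference between its changes was 26.9 ± 1.35 points (SE). Its upstream window, printed above, has CCGG spacings of 124 and 65 bases.

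Ptpn1 (19246), the tyrosine phosphatase that acts on the insulin receptor, had short-fragment levels of 0%, 0.04% and 0.05% in control mice against 0.02%, 0.03% and 0.73% in induced mice. In long fragments it had 8.02%, 8.27% and 8.64% in control mice against 55.7%, 47.4% and 54.3% in induced mice. The difference was 43.9 ± 2.40 points, and no induced long-fragment value overlapped a control value. Gm88 (224813, now Lrrc73) had long-fragment levels of 0.10%, 1.44% and 2.95% in control mice against 77.4%, 62.1% and 68.4% in induced mice. Its short fragments stood at 8.46%, 4.2% and 8.37% in induced mice, against a control mean of 0.0967% ± 0.167, and the difference was 60.9 ± 4.35 points. Kctd7 (212919) had 57.9%, 57.2% and 70.2% in the long and 5.25%, 0% and 0% in the short fragments of induced mice, with control long-fragment levels of 7.28%, 15.7% and 6.20%.

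Smaller long-fragment levels beside low short fragments were seen at Zfp687 and Kcnma1. Zfp687 (78266), a zinc finger protein, had 26.5%, 20.4% and 24.8% in long and 4.71%, 3.26% and 3.67% in short fragments of induced mice, with control means of 0.423% ± 0.398 and 0.240% ± 0.339 (SD, n = 3). Kcnma1 (16531), which encodes the large-conductance calcium-activated potassium channel, had long-fragment means of 3.99% ± 3.77 in control and 30.2% ± 7.94 in induced mice and short-fragment means of 0.0833% ± 0.112 and 4.50% ± 1.91. Long-fragment spread was wide at Ppfia3 (76787), a presynaptic scaffold protein, where the induced mice had 73.5%, 22.7% and 42.6%. It was wide also at Bcar3 (29815), a signalling adaptor, where they had 57.9%, 63.6% and 100%. The SEs of the difference were 14.3 and 14.6 points for Ppfia3 and Bcar3, both several times that of Wif1.

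The opposite case, long fragments under 10% in induced mice beside a larger short-fragment change, was found for 33 members, and for 34 with those lower in a size included. Their median went from 2.26% to 26.8% in short and from 0.0233% to 0.960% in long fragments, and 2 exceeded 50% in short fragments. Ubl5 (66177), a ubiquitin-like protein of splicing, had 4.21%, 0.75% and 0% in short fragments of control and 40.6%, 46.3% and 40.0% of induced mice. Its long fragments were at 0%, 0.03% and 0% in control mice against 1.37%, 0.03% and 0% in induced mice, a difference of -40.2 ± 2.29 points. B3gnt1 (108902, now B4gat1), a glycosyltransferase, had short-fragment levels of 75.3%, 34.3% and 41.1% and long-fragment levels of 0%, 0.14% and 15.9% in induced mice, with a difference of -44.5 ± 12.99 points. All of these short-fragment levels lay above those of the control mice, which were 0%, 2.50% and 0%.

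In most members neither of these held: the size with the smaller change ended at 10% or more in induced mice. Such members numbered 151 with a larger long-fragment and 156 with a larger short-fragment change, after setting apart those already above 50% in control and those lower by 5 points or more. In 141 and 147 of them the smaller change was itself a gain of 5 points or more. In the first set the long fragments went at the median from 2.65% to 65.5% and the short fragments from 1.95% to 39.2%. In the other set the short fragments went from 2.67% to 65.1% and the long fragments from 6.69% to 44.7%.

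**Figure D3:**
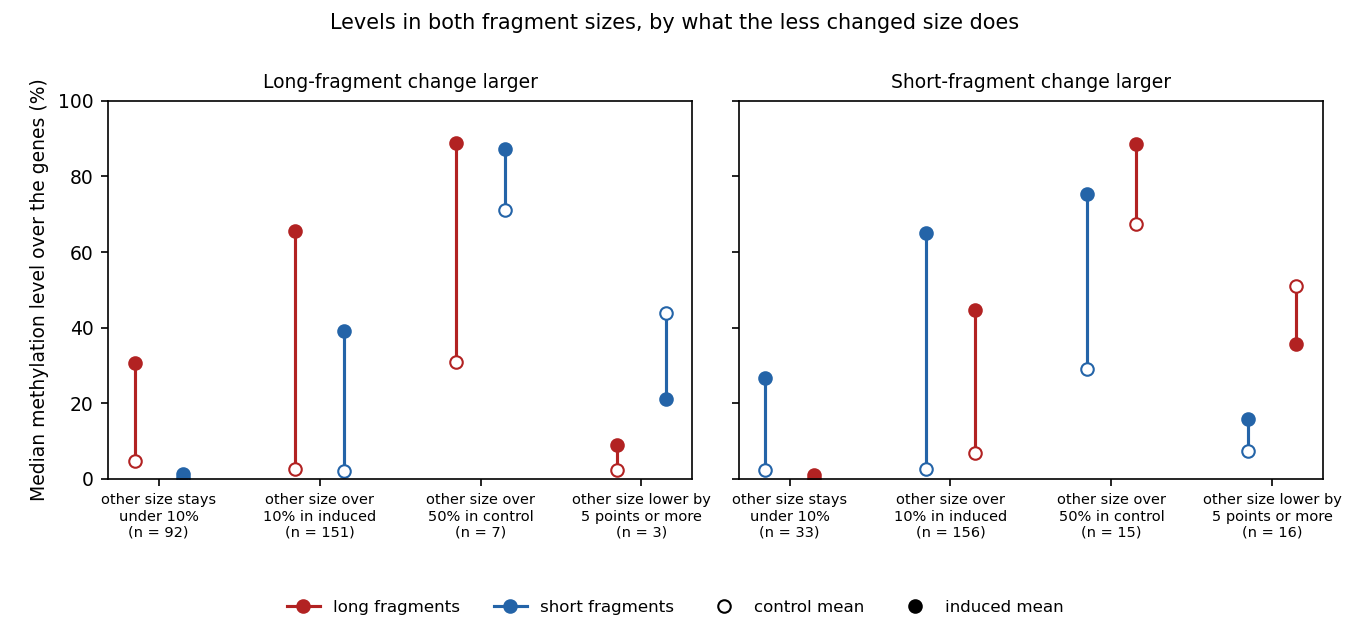
Median level over the genes (y axis, percent) in control (open circles) and induced mice (filled circles), in long (red) and short (blue) fragments, by the course of the size with the smaller change and by direction. The size with the smaller change ended at 1.15% and 0.960% in the 92 and 33 members of the first class, and at 39.2% and 44.7% in the 151 and 156 of the next.

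Among genes with higher induced means in both sizes, the long fragments were ahead at Bmp8b, Stx16 and Alkbh2. Bmp8b (12164), a bone morphogenetic protein, had 67.6%, 63.1% and 78.8% in long and 13.7%, 10.5% and 16.5% in short fragments of induced mice, with control means of 6.95% ± 4.81 and 0.0233% ± 0.0208. The difference was 49.3 ± 5.24 points. Stx16 (228960), a SNARE protein of the Golgi, had 72.4%, 83.1% and 83.3% in long and 35.9%, 24.2% and 31.0% in short fragments of induced mice, and control means of 10.5% ± 6.30 and 11.3% ± 1.52. Alkbh2 (231642), a DNA repair dioxygenase, had 73.4%, 52.2% and 78.3% in long and 22.1%, 28.4% and 23.8% in short fragments, from control means of 0.0533% ± 0.0924 and 0.143% ± 0.183. In all of these the induced long-fragment values lay above the induced short-fragment values in every mouse. Fam148c (237397, now C2cd4c) and Wdr8 (59002, now Wrap73) had differences of 53.6 ± 5.76 and 46.8 ± 8.67 points.

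The short fragments were ahead at EG545963, Sp5, Brsk2 and Pacsin3. Sp5 (64406), a transcription factor downstream of Wnt signalling, had 56.1%, 59.5% and 61.4% in short and 21.9%, 8.72% and 8.66% in long fragments of induced mice, from control means of 1.06% ± 0.431 and 0.607% ± 1.02. The difference was -45.4 ± 4.50 points. Brsk2 (75770), a kinase of neuronal polarity, had 51.9%, 53.1% and 59.9% in short and 6.39%, 23.0% and 14.3% in long fragments. Its long-fragment control levels were 9.09%, 5.67% and 0%, which overlapped those of the induced mice. Pacsin3 (80708), a membrane-bending protein, had induced means of 68.9% ± 9.31 in short and 38.3% ± 10.1 in long fragments, with control means of 4.48% ± 3.70 and 11.7% ± 6.53.

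EG545963 (545963, now Gm5897) and Lmtk3 (381983), a membrane kinase, are neighbours on chromosome 7 and had the same values in all 6 long-fragment libraries but not in the short-fragment ones. The shared long-fragment levels were 0.08%, 0% and 0% in control mice against 12.9%, 13.6% and 15.7% in induced mice. The short-fragment levels of induced mice were 57.7%, 70.5% and 81.4% for EG545963 and 67.9%, 77.7% and 81.8% for Lmtk3. Their differences of -55.8 ± 6.41 and -41.7 ± 4.21 points therefore share the long-fragment measurement. Of the members 6 shared all long-fragment values alone with another gene and 5 all short-fragment values alone. Another 22 and 20 members (8.70% and 9.09% of the 2 directions) shared their value with another gene in each of the 12 libraries, against 14.1% of all genes.

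**Figure D4:**
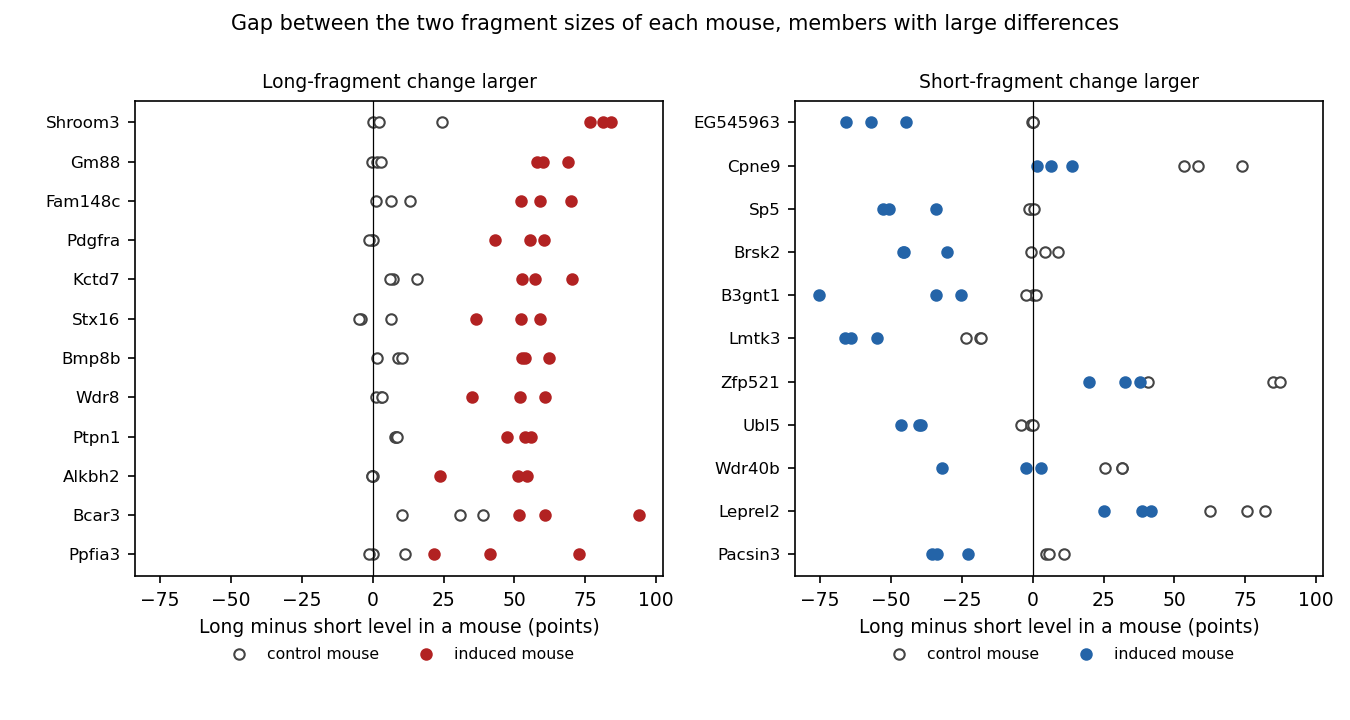
Long minus short level in each mouse (x axis, percentage points) for named members with large differences, 12 with the long and 11 with the short change larger (y axis), control mice as open and induced mice as filled circles. Control and induced circles do not overlap for any gene drawn, which was a condition for naming it.

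Control levels differed between the sizes more often among members than among all genes. Both sizes were under 10% in control mice for 167 of 253 members (66.0%) and 110 of 220 (50%), against 86.4% of all genes. A gap of 15 points or more between the control means was present in 52 (20.6%) and 68 (30.9%), against 6.59% of all genes. In members with a larger short-fragment change the gap was mostly one way: long fragments were higher in 58 of the 68. Among all genes with such a gap long fragments were also mostly the higher ones, in 249 of 350. In the other direction long fragments were higher in 23 and short fragments in 29 of the 52. As the control level is part of the change, these counts were not tested.

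A control level already above 50% in the size with the smaller change was seen for 8 and 23 members, or 7 and 15 without those whose level was lower by 5 points or more in induced mice. Cpne9 (211232), a copine, had long-fragment levels of 75.9%, 54.1% and 60.5% and short-fragment levels of 2.20%, 0.85% and 1.98% in control mice. In induced mice both sizes were high, at 95.4%, 85.8% and 84.3% in long and 81.7%, 79.2% and 82.9% in short fragments. The difference of -54.6 ± 6.94 points thus came with a control gap that nearly closed. Leprel2 (14789, now P3h3), a collagen prolyl hydroxylase, kept a gap, with induced means of 84.8% ± 10.9 in long and 49.6% ± 5.31 in short fragments.

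Acat3 (224530), an acetyl-CoA acetyltransferase, had long-fragment levels of 88.6%, 91.0% and 87.9% in control mice against 94.3%, 96.1% and 98.5% in induced mice. Its short fragments were at 1.47%, 0% and 4.17% in control mice against 21.2%, 38.9% and 54.8% in induced mice. Cnp (12799), an enzyme of myelin, had the reverse assignment: its larger change was in the size that was already high, from 79.99% ± 3.66 to 98.2% ± 1.57 in long fragments, beside short-fragment means of 0% and 0.683% ± 1.02. Ifi30 (65972), a lysosomal thiol reductase, and Psmb8 (16913), an immunoproteasome subunit, had high short fragments in control mice (93.2% ± 3.21 and 75.9% ± 10.8) and long fragments that went from 30.9% ± 3.69 to 58.2% ± 6.60 and from 9.54% ± 16.5 to 43.0% ± 5.25. The size that was higher in control mice became the lower one, by 5 points or more each time, in 23 of the 253 and 44 of the 220 members. Among all 5309 genes there were 77. Such a turn is itself a difference between the 2 changes, on which the rule selected, so nothing is read from these counts.

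The name of these genes as promoters with a gain does not hold for all of them. Per size, limma called a rise in short fragments for 133 and in long fragments for 186 of the 253 members with a larger long-fragment change, and for 190 and 81 of the 220 others, beside 29.8% and 23.7% of all genes. A fall was called for 0.0942% of all genes in short and for 0% in long fragments. The calls among members rest on the values the rule used, so nothing is read from their distance to all genes. No rise in either size was called for 54 and 30 members. In 19 members the mean was lower by 5 points or more in 1 size in induced mice, and none of these passed the test. Amn1 (232566) had long-fragment levels of 50%, 71.4% and 36.4% in control mice against 16%, 38.5% and 38.9% in induced mice, with overlap between the groups. Lrsam1 (227738) and Rpl12 (269261), a ribosomal protein, shared all 12 values, with long-fragment levels of 92.9%, 51.5% and 82.1% in control mice against 57.4%, 55.4% and 58.2% in induced mice.

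The members are described next by the mean of their 2 changes. Both measures come from the values the rule used. A difference of 15 points leaves little room for a mean change under 5 points, and levels cannot pass 100%, so part of this profile is set by the measures and nothing is read from it. Genes whose mean change over both sizes was under 5 points were members in 0.576% of 3471 cases, 5 with the long and 15 with the short change larger. The share was 24.7% of 574 genes at 5 to 20 points, 34.4% of 308 at 20 to 40, 29.8% of 477 at 40 to 60 and 13.2% of 479 at 60 or more. Larger long-fragment changes outnumbered larger short-fragment ones by 93 to 49 at 5 to 20 points and by 65 to 41 at 20 to 40. At 40 to 60 points the numbers were 52 and 90, and at 60 or more 38 and 25.

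**Figure D5:**
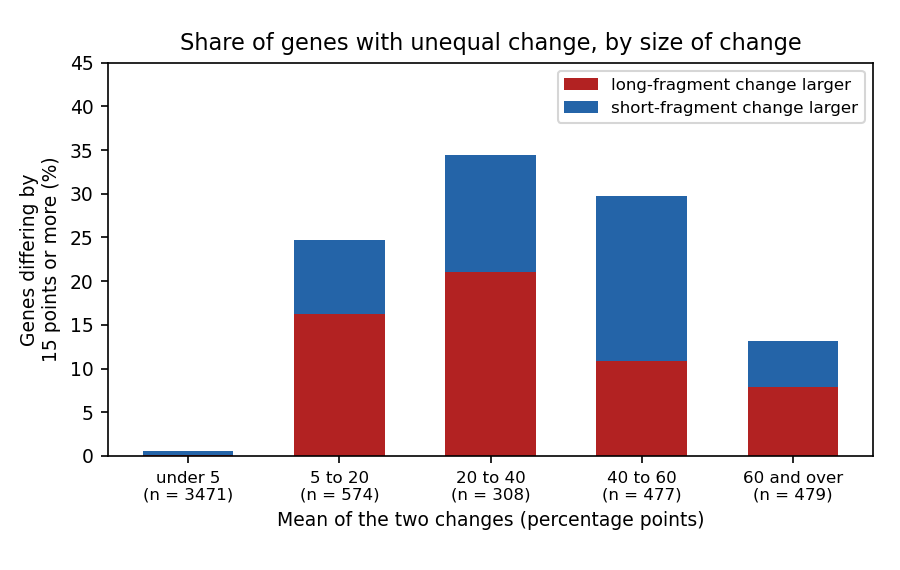
Share of genes that are members (y axis, percent) by the mean of the 2 changes (x axis, percentage points), stacked by direction. The share is 0.576% under 5 points, 34.4% between 20 and 40 points and 13.2% at 60 points or more.

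The promoters behind a level were mostly the same ones in both sizes. All libraries listed the same promoter accessions for 242 of 253 (95.7%) and 213 of 220 (96.8%) members, against 98.7% of all genes. At Shroom3 and Pdgfra no accession was listed in both sizes, so that short and long levels come from different promoters. Shroom3 (27428), an actin-binding protein of epithelial cells, had the largest difference of all, 71.8 ± 7.74 points. Its short fragments were at or below 0.45% in all 6 mice, and its long fragments at 25%, 0% and 2.31% in control mice against 76.6%, 81.6% and 84.3% in induced mice. Pdgfra (18595), a growth factor receptor of stromal cells, had 45.5%, 66.9% and 87.0% in long and 2.38%, 6.60% and 31.5% in short fragments of induced mice. The lower short-fragment mean of Ace (11421), an angiotensin-converting enzyme, in induced mice (21.0% ± 26.5, against 43.9% ± 5.05) came with a change in listing. Its promoter with levels of 75.6% to 91.0% was listed in the 3 control and in only 1 of the 3 induced short-fragment libraries. At its other promoter, listed in all 12 libraries, the difference was 2.80 points. Of the members, 243 of 253 and 215 of 220 had a promoter listed in all 12 libraries that itself met the rule in the same direction.

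On the X chromosome 26 of 101 genes (25.7%) were members, 8 with the long and 18 with the short change larger, and none was called in the fit of the difference. On the numbered chromosomes the share was 5.24% (chromosome 14) to 11.5% (chromosome 18). Over the 101 genes the median level was 33.9%, 0.31% and 33.2% in short fragments of control mice 1, 2 and 3. It was 54.3%, 49.4% and 47.6% in those of induced mice 1, 2 and 3. In long fragments the medians were 34.7%, 0% and 36.2% against 54.8%, 50.9% and 59.1%. Of all genes with a mean change of 20 to 40 points 34.4% were members, so the 25.7% is not read as a high share. Control mouse 2 stood apart on this chromosome. The median level of the 26 members was 2.56% in its short and 0% in its long fragments, against 30.3% to 36.2% in control mice 1 and 3. Without control mouse 2, 27 of the 101 genes differed by 15 points or more, 22 of the 26 among them. Wdr40b (245404, now Dcaf12l1), for example, had short-fragment levels of 32.9%, 3.03% and 25.3% in control mice against 96.9%, 82.7% and 92.2% in induced mice. Ndufb11 (104130), a subunit of respiratory complex I, had 46.2%, 0% and 53.1% in short fragments of control and 8.79%, 44.3% and 35.1% of induced mice, and a difference of 35.4 ± 22.1 points. The labels give no sex, and the part of control mouse 2 in these results was read only by leaving it out.

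Gene groups are described by counts of members beside the 8.91% of all genes. Developmental transcription factors, ion channels and neurotransmitter receptors had median changes of 59.9, 57.7 and 59.6 points in short and 56.9, 56.2 and 59.4 points in long fragments. Of all genes with a mean change of 40 to 60 points 29.8% were members, and of those at 60 or more 13.2%, so the 8.91% is no measure for these lists. Secreted signals had median changes of 39.1 and 41.9 points and axon guidance genes 35.6 and 36.3 points, and in the classes around those means (40 to 60 and 20 to 40 points) 29.8% and 34.4% of all genes were members. Of 179 measured developmental transcription factors 11 had a larger long- and 13 a larger short-fragment change (13.4%), and the median difference over the list was 0.317 points, against 0.0433 points over all genes. Pitx3 (18742), a factor of dopaminergic neurons and the lens, had 83.98%, 53.2% and 64.6% in short and 35.5%, 47.9% and 39.0% in long fragments of induced mice, and at most 0.07% in any control library. Irx4 (50916), a factor of the heart ventricle, had induced means of 70.6% ± 7.39 in short and 71.0% ± 6.10 in long fragments. Its control means were 0.933% ± 0.687 and 29.5% ± 2.15, with a difference of -28.2 ± 5.42 points. The sizes stood apart in the control mice, while the induced means were nearly equal. Twist2 (13345), a mesenchymal factor, had control means of 4.37% ± 2.55 in short and 32.5% ± 12.7 in long fragments.

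Of 52 ion channel genes 6 had a larger long- and 3 a larger short-fragment change (17.3%), with a median difference of -0.177 points over the list. Of 27 neurotransmitter receptors 4 and 3 were members (25.9%), with a median of 0.670 points. Kcna6 (16494), a voltage-gated potassium channel, had control means of 47.6% ± 4.98 in short and 11.6% ± 1.36 in long fragments and induced means of 80.4% ± 3.67 and 75.2% ± 3.87, a difference of 30.8 ± 4.06 points. Adra2a (11551), an adrenergic receptor, had 43.5%, 45.5% and 61.1% in long and 21.0%, 23.2% and 25.4% in short fragments of induced mice, from control means of 0% and 0.570% ± 0.467. Grin2c (14813), a glutamate receptor subunit, had induced means of 77.6% ± 5.79 in short and 67.3% ± 10.4 in long fragments, and control means of 0.540% ± 0.609 and 25.6% ± 7.15.

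Of 66 secreted signals and their receptors 6 and 3 were members (13.6%), and of 57 axon guidance and adhesion genes 5 and 2 (12.3%), with median differences of 0.253 and 0.500 points. Fgf22 (67112), a fibroblast growth factor, had control means of 28.8% ± 1.20 in short and 7.48% ± 1.41 in long fragments and induced means of 77.3% ± 8.53 and 85.7% ± 5.10. Ntn3 (18209), a netrin, had 83.0%, 68.9% and 83.7% in long and 29.2%, 42.4% and 41.1% in short fragments of induced mice. Epha6 (13840), an ephrin receptor, had the other order, with induced means of 73.6% ± 2.58 in short and 41.5% ± 6.19 in long fragments. Solute carriers had 3 and 8 members of 96 (11.5%), and zinc finger genes 5 and 2 of 96 (7.29%), with medians of -0.0150 and 0.108 points. Median changes of these lists were 1.09 and 0.278 points in short and 1.71 and 0.443 points in long fragments. Their shares were not set against genes of a like change.

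Of 20 imprinted genes, which are expressed mainly from the copy of 1 parent, 2 were members (10%), both with the short change larger. The median difference over the list was -0.413 points, and the median control levels were 0.663% in short and 1.385% in long fragments. Cdkn1c (12577), a growth-restraining cell cycle inhibitor, had short-fragment levels of 34.0%, 28.2% and 25.7% in control mice against 75.7%, 66.2% and 78.7% in induced mice, and long-fragment means of 74.4% ± 18.7 and 89.2% ± 1.64. Impact (16210) had levels that overlapped between the groups in both sizes, and its difference of -15.9 ± 17.7 points was smaller than its SE. Housekeeping genes had 4 and 2 members of 117 (5.13%), with a median of 0.0333 points. Their median changes were 0.0567 points in short and 0.103 points in long fragments. Of all genes with a mean change under 5 points 0.576% were members, so the 5.13% is not read as a low share. None of the 8 germline genes, 4 immune cell markers and 9 genes of the DNA methylation machinery was a member, with median differences of -4.47, -2.49 and -0.0200 points. Of 16 colon epithelium genes (median difference 0.0883 points) 1 was a member, Chga (12652), the granule protein of enteroendocrine cells, with induced means of 74.7% ± 9.21 in long and 52.8% ± 14.1 in short fragments. Of 6 stromal, muscle and endothelial markers 2 were members, Pdgfra and Twist2, and the median difference over the 6 was 8.23 points. The 6 had median changes of 54.6 points in short and 64.3 points in long fragments. For the 4 immune cell markers these were 43.0 and 36.2 points, and for the 20 imprinted genes 2.03 and 2.245 points. Shares of these 3 lists were not set against genes of a like change. Promoter levels do not measure expression, so the labelled cell type could not be checked by marker RNA.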

How the data were processed

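Per the file headers, the deposited tables hold for every library a fraction of methylated CpG, between 0 and 1, that the authors averaged for each gene and each of its RefSeq promoters. Not given in the sources used here: aligner, build, promoter window and coverage. The depth is thus unknown, and counting error has no interval here. Between 10358 and 10838 genes were listed in a short-fragment library, and between 7278 and 8108 in a long-fragment one. Fractions were multiplied to percent. The mice are separate animals, and the 2 libraries of a mouse come from the same animal, per the series design.

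The members, the gene lists (14, matched by symbol), the tests and most alternatives were chosen with earlier results of these data known. Differences between the changes were fitted with limma 3.58.1 in R 4.3.3 over 5309 genes, with mouse as a random block (duplicateCorrelation, consensus 0.0674) and Benjamini-Hochberg adjustment. Changes per fragment size were fitted with limma over 10027 genes in short and 6127 in long fragments. Deviations of a mouse's 2 libraries from their group means correlated across genes at 0.294, 0.613 and 0.290 for control mice 1, 2 and 3 and at 0.198, 0.0559 and 0.394 for induced mice 1, 2 and 3. The fits were also run on simulated levels, drawn independently for each library. The libraries of a simulated mouse were thus unrelated, so that run did not test the mouse block, and no support for the calls is drawn from it.

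Named genes were, in each direction, the 12 largest differences without overlap between induced and control mice, up to 3 per gene list, the 3 largest control gaps, up to 4 members lower by 5 points or more in a size, and the 3 genes on each side of the threshold. Not all of these are described, and 1 is not reported here. Genes named for sharing or listing of promoters fall under the same rule. Of the 5309 genes 5304 (99.91%) matched the RefSeq gene table of GRCm38.p6, used for chromosomes and current symbols. The tables were made in Python 3.11.15 (pandas 2.3.3, numpy 2.4.6) and the plots with matplotlib 3.10.9.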

Additional observations from a re-analysis of the deposited data

Results flagged for a closer look

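The change after induction differed between the fragment sizes, by the fit of the difference itself (limma, adjusted p under 0.05), in 117 of the 473 members, 71 with the long and 46 with the short change larger, beside 4.71% of all genes. The members were chosen on the same contrast, so the count says nothing further about them.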

How the results depend on the processing

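The counts of members moved with the threshold: at 10, 20 and 25 points 467, 129 and 59 genes had the larger long-fragment and 368, 121 and 63 the larger short-fragment change. Leaving out each mouse in turn gave 252 to 314 and 206 to 284. The other rules tried (medians, single promoters, X genes or shared values left out, low genes left out) stayed within 1.5 times. The rule applied per promoter gave 271 and 245 of 6060. Genes with a promoter listed in both sizes were an alternative chosen after seeing the data.

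Calls of the difference (140 and 110) fell to 75 and 62 with mouse as a fixed replicate block and to 0 and 0 when the replicate number was added as a block on the differences per mouse, where 634 genes had an unadjusted p under 0.05. That last number joins control and induced mice that share only a number. Leaving out 1 mouse gave 63 to 232 and 59 to 209: in all 131, 125 and 158 without control mice 1, 2 and 3, and 441, 392 and 419 without induced mice 1, 2 and 3. Members called in long fragments numbered 267, 126 with a replicate block and 165 to 282 with a mouse left out, the lowest 3 being 170, 165 and 167 without control mice 1, 2 and 3. In short fragments they numbered 323 and 259 with the block. Why these counts moved was not tested. No named gene changed the sign of its difference in any of these fits. Of 851 named-gene values 86 lost their call and 35 gained one. Unknown read depth limits every level, and few reads may stand behind a level of 0%.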
